A study of Mus musculus with 6106 samples.

Results

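The genes described here are 9 that encode surface receptors of T cells, chosen by name: Cd4, Thy1, Cd5, Cd6, Cd2, Cd28, Icos, Cd69 and Cd83. All 9 were found by their symbols among the 23725 genes of the count table, of which 14607 had a count in any cell. They were measured in regulatory T cells (Tregs), which are set apart from other CD4 T cells by the factor Foxp3 and hold immune responses in check. The cells came from the spleens of male B6 mice aged 10 months that carried, in all groups, the Nr4a1-Gfp reporter and the Foxp3-Ires-Thy1.1 reporter. Cells that excluded the dye DAPI and bore TCR beta, CD4 and the FoxP3-Thy1.1 marker were sorted by green fluorescence into 3 bins, named GFPlow for the range from 0 to 20 percent, GFPmed for that from 40 to 60 and GFPhigh for that from 80 to 100. No group lacked either reporter, and the number of mice behind each library is not given in the labels. Each bin was 1 inDrops single-cell library with 0 replicates, so no test between bins was possible and every interval below covers counting error only.

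Signalling through the T cell receptor (TCR) switches on Nr4a1 within hours, and GFP driven from Nr4a1 marks cells by how strongly they were recently stimulated. The TCR does not act alone. CD4 binds MHC class II and brings the kinase Lck to the receptor, CD28 and ICOS add costimulation, CD2 holds the T cell to its partner cell, and CD5 and CD6 damp the signal. CD69 and CD83 are made after activation, CD69 also holding cells in the tissue by removing the egress receptor S1PR1 from the surface. Surface CD5 is widely used as a marker of TCR signal strength, since more strongly self-reactive T cells carry more of it. In Tregs, CD28 and ICOS signals maintain the cells, and ICOS is high on effector Tregs.

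After cells with under 500 unique molecular identifiers (UMIs, each counting 1 captured transcript) were left out, 5435 of 6106 cells remained: 1537 of GFPmed, 1775 of GFPhigh and the rest of GFPlow, which is 91.4%, 86.5% and 89.5% of these bins' cells. The median depth per cell was 1085 UMIs in GFPlow and 1129 in GFPhigh and was highest in GFPmed (median of 750 genes per cell, beside 622 in GFPhigh), and the summed depth from GFPlow to GFPhigh was 2435870, 2512277 and 2270376 UMIs. Because the bins differed in depth per cell, levels are given as UPM, the UMIs a gene had for every 1000000 UMIs summed over its bin, and shares of cells were taken after each cell was thinned at random to 500 UMIs. Between libraries, 95 barcodes were shared, and 3.09% of the kept cells carried 1 of them. Nr4a1, the gene of the reporter, was at 35.7, 92.7 and 340 UPM from GFPlow to GFPhigh, and Foxp3 at 390, 317 and 359. Markers of other cells also differed between the bins. Summed erythroid markers, led by Hba-a2, were 1401, 3006 and 1053 UPM in GFPlow, GFPmed and GFPhigh, and summed myeloid markers, led by Lyz1, were 10.3, 120.6 and 11.9. Summed plasma cell markers, led by Jchain, were 23.4, 6.77 and 234 UPM, and summed B cell markers, led by Cd74, were 212.7, 296 and 291.6. Summed CD8 T and NK cell markers, led by Cd8b1, were 70.6, 123.4 and 75.8 UPM, and summed dendritic cell markers, led by Xcr1, were 17.7, 23.1 and 19.8, while Pax5, S100a8 and S100a9 were at 0. As a check, the 252 cells with at least 2 UMIs summed over these 6 marker lists were left out. All 27 ratios between bins then stayed inside their counting intervals. The part of other cells' transcripts in the remaining cells was not tested.

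The genes lie on 6 chromosomes, at these places in mm10 with GENCODE M21. Cd5 (chr19:10717116-10739002, minus strand) and Cd6 (chr19:10789341-10830058, minus strand) are related genes 50.3 kb apart, and Cd28 (chr1:60716800-60773359, plus strand) and Icos (chr1:60977927-61000320, plus strand), also related to each other, lie 205 kb apart. Cd4 (chr6:124864692-124888221) and Cd69 (chr6:129267325-129275436) share a chromosome and lie on the minus strand. Thy1 is at chr9:44043384-44048579 on the plus strand, Cd2 at chr3:101275899-101287939 on the minus strand and Cd83 at chr13:43784775-43803132 on the plus strand. A promoter sequence was at hand for 1 of the 9, Cd5, the gene best known as a gauge of TCR signal strength. It is shown because its level followed the order of the GFP bins. The RefSeq window (GRCm38.p6, chr19:10739003-10739224, minus strand, directly before the gene's annotated start, 56.3% G or C) reads, with matches of the ETS core GGAAG and of the E-box CACCTG on either strand in capitals:
Cd5: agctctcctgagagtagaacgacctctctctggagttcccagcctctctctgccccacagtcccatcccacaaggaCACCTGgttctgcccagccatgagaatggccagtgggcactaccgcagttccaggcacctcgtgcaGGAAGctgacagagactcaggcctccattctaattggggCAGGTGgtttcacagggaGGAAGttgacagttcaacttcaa
The ETS core matched 2 times, 80 and 23 bases before the gene, and 58.9% of 32851 RefSeq promoter windows hold it. The E-box matched 2 times, at 41 bases and upstream of both ETS cores, and 15.6% of the windows hold it. None of the matches overlap. No match was found for GCGNGGGCG, the motif of the EGR factors (in 3.82% of windows), for AAAGGTCA, the element bound by NR4A receptors (1.19%), or for TATAAA (10.1%).

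Across the bins, the receptors did not move as a group. Cd83 and the inhibitory pair Cd5 and Cd6 were highest in GFPhigh, Thy1 was lower with each step up in GFP, Cd4, Cd28 and Icos were lowest in the middle bin, and Cd2 and Cd69 were nearly level. Comparing the outer bins, 5 of the 9 had more UPM in GFPhigh and 4 in GFPlow, and the median log2 ratio was 0.14, beside 0.03 over the 5845 genes with at least 100 UMIs in these 2 libraries. Past 1.5-fold, Cd6 and Cd83 were higher, as were 6.21% of all genes, and Thy1 was lower, as were 4.77%. From GFPlow to GFPmed, 0 of the 9 were higher past 1.5-fold (2.45% of genes) and Icos was lower (4.02%), with a median of -0.01 beside -0.05 over all genes. From GFPmed to GFPhigh, Cd83 was higher past 1.5-fold (5.55% of genes) and 0 of the 9 were lower (1.97%), with a median of 0.27 beside 0.08. At any fold, 42.7% of all genes were higher in GFPmed than in GFPlow, and 61.6% were higher in GFPhigh than in GFPmed. Foxp3, like Cd4, Cd28 and Icos, was lowest in GFPmed.

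**Figure D1:**
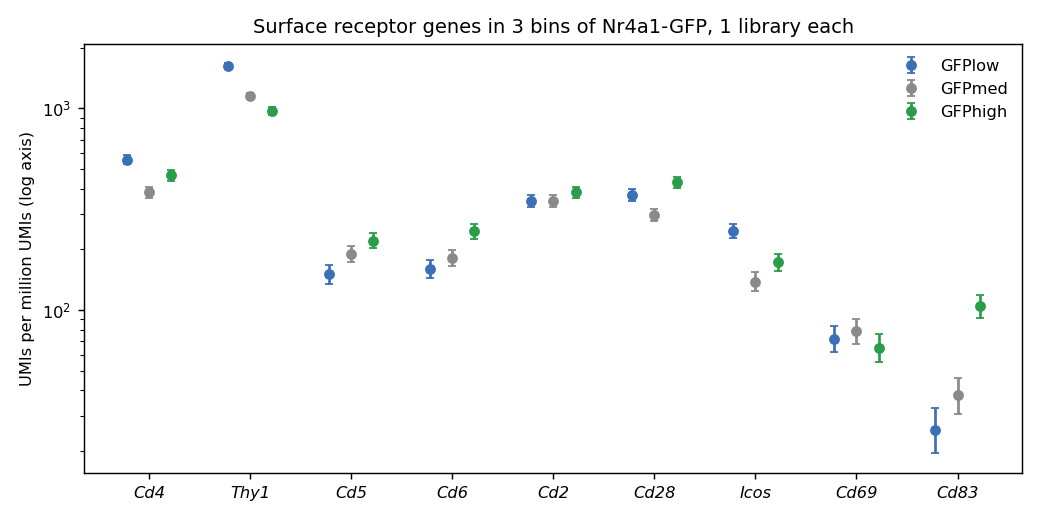
Level of each receptor gene in GFPlow, GFPmed and GFPhigh, in UMIs per 1000000 UMIs on a log axis, with 95% exact Poisson intervals for counting error; each point is 1 library. Thy1 goes from 1616 down to 971, Cd5 and Cd6 are highest in GFPhigh, and Cd83 is at 104.8 in GFPhigh against 25.5 in GFPlow.

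Among the inhibitory receptors, Cd5 stood at 150 UPM (95% exact Poisson interval 135.3 to 166.5) in GFPlow, 189 (172.8 to 207.3) in GFPmed and 221.1 (202.2 to 241) in GFPhigh. It was lowest in GFPlow and highest in GFPhigh, and the intervals of the outer bins did not overlap. The log2 ratio of GFPhigh over GFPlow was 0.56 [0.36, 0.76], and that of GFPhigh over GFPmed was 0.22 [0.04, 0.41]. At 1.47-fold, Cd5 lay just under the 1.5-fold line. Cd6, whose product resembles CD5 and binds ALCAM on other cells, stood at 160 UPM (144.2 to 176.4), 181.5 (165 to 198.96) and 246.2 (226.2 to 267.5) in GFPlow, GFPmed and GFPhigh. GFPhigh stood above both other bins, which did not differ beyond counting error (0.18 [-0.01, 0.38]). Its log2 ratio of GFPhigh over GFPlow was 0.62 [0.44, 0.82], 1.54-fold and just past the line. With TMM factors, a scaling that sets the bulk of the genes level between libraries, it was 0.57 and no longer past it. The share of cells with a Cd5 UMI after thinning was 6.26% (exact Clopper-Pearson 5.27 to 7.38) in GFPlow, 7.87% (6.58 to 9.33) in GFPmed and 10.3% (8.93 to 11.8) in GFPhigh, and 14.3%, 23.8% and 22.3% before thinning. For Cd6 the thinned shares were 7.44%, 7.29% and 12.7%, and 15.4%, 22.1% and 24.6% before thinning.

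Cd83, a surface protein of activated lymphocytes and dendritic cells, gave the widest ratio of the 9. It stood at 25.5 UPM (19.5 to 32.6) in GFPlow, 37.8 (30.6 to 46.2) in GFPmed and 104.8 (91.9 to 119.03) in GFPhigh, from 62, 95 and 238 UMIs. The 3 intervals overlapped only between GFPlow and GFPmed. GFPhigh was 4.09-fold above GFPlow (log2 ratio 2.03 [1.63, 2.47]) and 2.76-fold above GFPmed (1.47 [1.12, 1.83]), and GFPmed was 1.48-fold above GFPlow (0.57 [0.09, 1.06]). The UMIs came from few cells. From GFPlow to GFPhigh, the 10 cells richest in Cd83 held 46.8%, 38.9% and 21.8% of its UMIs, and without its richest cell in each bin the log2 ratio of GFPhigh over GFPlow was 2.14. B cells also make Cd83. Of 50 cells with at least 3 thinned UMIs of B cell markers, 4 (8%) had a Cd83 UMI after thinning. In the 5364 cells under 3 such UMIs for each of the B cell, erythroid and myeloid lists, the share was 2.13%. Without the 252 cells that held at least 2 UMIs over all 6 marker lists, the log2 ratio of GFPhigh over GFPlow was 2.26.

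Cd69, the other activation receptor, did not follow Cd83. Its level was 72.3 UPM (61.97 to 83.8) in GFPlow, 78.8 (68.2 to 90.6) in GFPmed and 65.2 (55.1 to 76.6) in GFPhigh. All 3 intervals overlapped, and the log2 ratio of GFPhigh over GFPlow was -0.15 [-0.47, 0.18]. The thinned share of cells with a UMI was 3.25%, 3.38% and 2.25%, and 6.12%, 8.26% and 5.41% before thinning. From GFPlow to GFPhigh, the 10 cells richest in Cd69 held 17.05%, 19.2% and 31.1% of its UMIs. The level of the whole bin hid a difference between its cells, which the gates below show.

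The coreceptor gene Cd4 stood at 558 UPM (528 to 588) in GFPlow, 384 (360 to 409) in GFPmed and 465 (437 to 494) in GFPhigh. GFPlow was highest, GFPmed lowest, and no intervals overlapped. GFPmed over GFPlow had a log2 ratio of -0.54 [-0.66, -0.42], and GFPhigh over GFPmed had 0.27 [0.15, 0.40]. All cells had been sorted on CD4 protein, yet a Cd4 UMI was seen in 21.8%, 16.98% and 17.9% of thinned cells, and in 37.4%, 37.5% and 33.97% before thinning. Most cells sorted as CD4-positive thus had no Cd4 UMI at this depth. In a sum over the cells of a bin, fewer cells with a transcript and less transcript per cell cannot be told apart.

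Cd28, the main costimulatory receptor, was also lowest in the middle bin. It stood at 372 UPM (348 to 397) in GFPlow, 296 (275.2 to 318) in GFPmed and 430 (404 to 458) in GFPhigh. GFPhigh was the highest bin here, with a log2 ratio of 0.21 [0.08, 0.34] over GFPlow and 0.54 [0.40, 0.68] over GFPmed. Its neighbour Icos stood at 246.3 UPM (227 to 266.8), 138.5 (124.3 to 153.9) and 172.7 (155.99 to 190.6). GFPlow was highest and GFPmed lowest, with log2 ratios over GFPlow of -0.83 [-1.03, -0.64] for GFPmed and -0.51 [-0.70, -0.33] for GFPhigh. Thinned shares were 14.7%, 12.04% and 15.9% of cells for Cd28 and 10.3%, 5.47% and 7.38% for Icos, and 25.9%, 27.98% and 30.4% and 16.9%, 12.5% and 12.96% before thinning. The GFPmed library, lowest in Cd4, Cd28 and Icos, is also the library with the most erythroid and myeloid marker UMIs. Without cells with markers of other cell types these ratios stayed within their intervals. The part of other cells' transcripts in the remaining cells, and the cause of the low GFPmed levels, were not tested.

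The adhesion receptor gene Cd2 differed little between bins. It stood at 348 UPM (325 to 372) in GFPlow, 346 (324 to 370) in GFPmed and 383.2 (358 to 409.5) in GFPhigh. All 3 intervals overlapped. The ratio of GFPhigh over GFPlow was 0.14 [0.00, 0.28], with 0 at the edge of its interval. Thinned shares of 15.1%, 16.3% and 15.7% were level too, and before thinning they were 29.4%, 37.8% and 32.6%.

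Thy1 encodes a lipid-anchored surface antigen of mouse T cells. It stood at 1616 UPM (1566 to 1667) in GFPlow, 1150 (1108 to 1192) in GFPmed and 971 (931 to 1012) in GFPhigh. The order was strict and no intervals overlapped. The log2 ratio of GFPhigh over GFPlow was -0.73 [-0.81, -0.66], or 1.66-fold lower, and that of GFPhigh over GFPmed was -0.24 [-0.32, -0.16]. Thinned shares of cells with a Thy1 UMI were 49.6%, 39.04% and 32.5%, and 71.3%, 65.6% and 54.9% before thinning. The mice also carried Thy1.1 behind an IRES at Foxp3, and the labels do not say whether reporter transcripts add to the Thy1 counts.

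**Figure D2:**
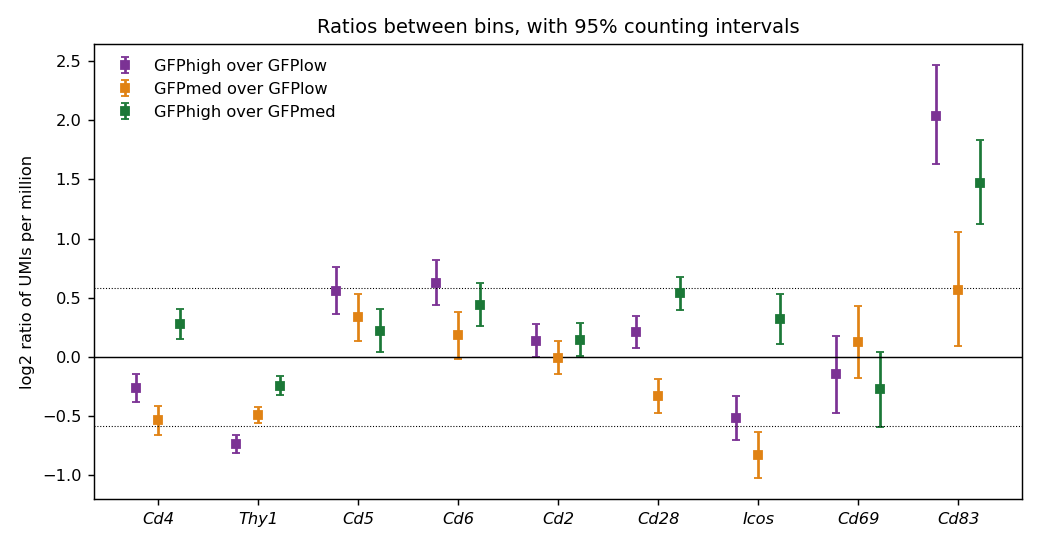
Log2 ratio of UMIs per 1000000 UMIs for each receptor gene and each pair of bins, with 95% exact conditional binomial intervals; the dotted lines mark 1.5-fold. Cd83 and Cd6 lie above the upper line and Thy1 below the lower line for GFPhigh over GFPlow, and Icos lies below it for GFPmed over GFPlow.

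As a background for the shares, 71 cells had at least 3 thinned UMIs of the B cell, erythroid or myeloid list. Their median depth was 1211 UMIs, beside 1208 in the 5364 other cells. Those other cells were not free of markers of other cell types. After thinning, a Thy1 UMI was seen in 2.82% of the 71 and in 41.5% of the others, a Cd4 UMI in 4.23% and 19.4%, and a Cd28 UMI in 1.41% and 14.5%. Cd6 (1.41% and 9.23%) and Icos (1.41% and 8.05%) were also higher in the others. Cd5 was seen in 0 of the 71, which by a limit of 3 counts allows a share of up to 4.23%, beside 8.15%. For Cd2 (11.3% and 15.7%), Cd69 (0 of 71, up to 4.23% by the same limit, beside 3.00%) and Cd83 (5.63% and 2.13%) the share in Tregs was not above what this background allows, and B cells are known to make all 3.

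To see how the receptors varied among the cells of a bin, cells were sorted by 2 gene lists that hold none of the 9. Early TCR cells had at least 1 thinned UMI of 10 genes switched on soon after TCR stimulation (Nr4a1, Nr4a2, Nr4a3, Egr1, Egr2, Egr3, Tnfrsf9, Irf4, Myc and Nfkbid, of which Nr4a3 and Egr3 were at 0). Effector cells had at least 2 thinned UMIs of 7 genes of effector Tregs (S100a4, S100a6, Ccr2, Itgb1, Itgae, Klrg1 and Il1rl1). These are ranges of a count, not cell types: 76.4%, 71.7% and 54.7% of early TCR cells in GFPlow, GFPmed and GFPhigh sat at the minimum of 1 UMI, and 31.1%, 57.5% and 46.9% of effector cells sat at the minimum of 2. Early TCR cells were 8.57%, 12.4% and 22.03% of the 3 bins in that order, effector cells 13.6%, 5.66% and 2.76%, and cells with neither 76.7%, 81.002% and 74.1%. The few cells with both numbered 24, 14 and 20. As Nr4a1 is both a gate gene and the gene of the sort, the shares of early TCR cells are given as a description. Cells with neither were not free of gate transcripts, as gates were read on thinned UMIs and levels on all UMIs. Among them, Nr4a1 stood at 6.92, 32.8 and 51.8 UPM in GFPlow, GFPmed and GFPhigh.

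Cd69 was higher in early TCR cells in each bin. In cells with neither it stood at 63.9, 62.7 and 34.3 UPM in GFPlow, GFPmed and GFPhigh, and in early TCR cells at 158.9, 192.03 and 174.7. The intervals of the early TCR cells overlapped between all 3 bins, while cells with neither were lowest in GFPhigh. The log2 ratio of early TCR over neither was 1.33 [0.71, 1.88], 1.62 [1.15, 2.06] and 2.34 [1.85, 2.85]. When at least 2 early TCR UMIs were asked for, the ratio was 1.21, 2.85 and 2.97. Here and below, that setting counted cells with 1 early TCR UMI and under 2 effector UMIs among cells with neither. Within cells with neither, GFPhigh over GFPlow was -0.89 [-1.38, -0.43], and within early TCR cells 0.12 [-0.45, 0.76]. In GFPhigh, early TCR cells held 61.5% of the Cd69 UMIs and 22.9% of all UMIs. Effector cells had no such excess, at 68.6 and 54.1 UPM in GFPlow and GFPmed and at 0 of 60667 UMIs in GFPhigh, where up to 60.8 UPM lies within the Poisson interval.

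Cd83 was also higher in early TCR cells, and was highest in GFPhigh both among them and among cells with neither. Cells with neither stood at 13.3, 25.9 and 61.4 UPM in GFPlow, GFPmed and GFPhigh, and early TCR cells at 91.5, 80.5 and 230. Early TCR over neither was 2.79 [1.84, 3.70], 1.65 [0.90, 2.34] and 1.91 [1.51, 2.30], and 3.17, 2.59 and 2.43 with at least 2 early TCR UMIs. GFPhigh over GFPlow was 2.18 [1.56, 2.90] within cells with neither and 1.30 [0.63, 2.11] within early TCR cells. Both activation receptors were thus high in early TCR cells, while over whole bins Cd83 alone was higher in GFPhigh.

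Icos was higher in effector cells in each bin. In cells with neither it stood at 177.9, 121.9 and 134.3 UPM in GFPlow, GFPmed and GFPhigh, and in effector cells at 574, 340 and 412. Effector over neither was 1.69 [1.42, 1.95], 1.49 [0.98, 1.95] and 1.64 [0.96, 2.22], the last from 49 effector cells. For Cd83 the same comparison gave 1.13 [-0.21, 2.22], 1.33 [-0.03, 2.33] and 1.18 [-0.15, 2.13], with 0 inside each interval. Effector cells held 30.7% of the Icos UMIs of GFPlow, beside 13.2% of all its UMIs, and 6.38% beside 2.67% in GFPhigh. Icos was also higher in early TCR cells of GFPlow (0.61 [0.16, 1.01]) and GFPhigh (0.83 [0.50, 1.15]), and not beyond counting error in GFPmed (0.21 [-0.30, 0.66], and 1.12 with at least 2 early TCR UMIs). Within cells with neither, Icos was lower in GFPhigh than in GFPlow (-0.40 [-0.66, -0.16]). Of these cells, 238 of 1628 in GFPlow and 87 of 1315 in GFPhigh held 1 thinned effector UMI, under the gate's minimum of 2. Whether Icos differed apart from effector transcripts was not tested.

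**Figure D3:**
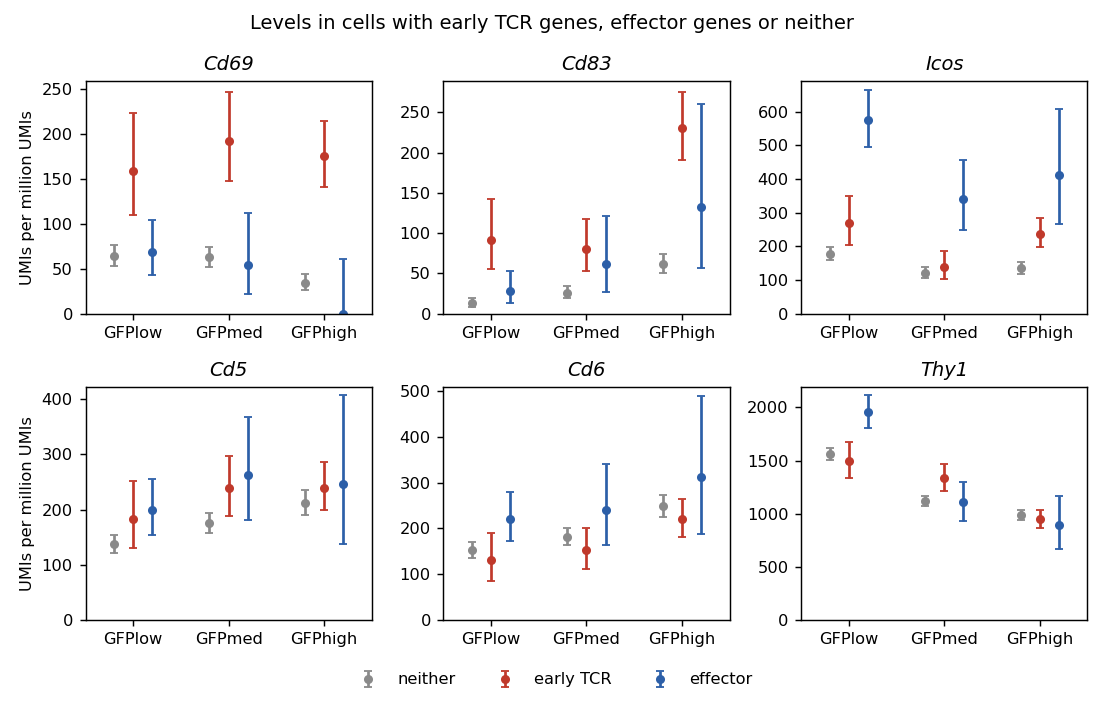
Level in UMIs per 1000000 UMIs of Cd69, Cd83, Icos, Cd5, Cd6 and Thy1 in cells with neither gene list (grey), early TCR cells (red) and effector cells (blue) of each bin, with 95% exact Poisson intervals. Red stands above grey in every bin for Cd69 and Cd83, blue above grey in every bin for Icos, and Thy1 is lower in GFPhigh than in GFPlow for each colour.

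With the gates as set, the inhibitory pair stood within counting error between early TCR cells and cells with neither, except for Cd5 in GFPmed. Cd5 in early TCR over neither cells was 0.43 [-0.11, 0.91] in GFPlow, 0.46 [0.07, 0.81] in GFPmed and 0.18 [-0.13, 0.47] in GFPhigh, positive each time and past counting error in GFPmed alone. With at least 2 early TCR UMIs it was 1.41 in GFPlow and -0.015 in GFPmed. With Myc left out of the gate, an alternative added after seeing the data, Cd5 was at 1.09, 0.44 and 0.28 from GFPlow to GFPhigh. The value of 1.09 lies outside the interval of the main ratio. Cd6 was -0.21 [-0.86, 0.34], -0.25 [-0.72, 0.17] and -0.17 [-0.48, 0.13], negative each time and never past it, and 0.50 in GFPmed and 0.13 in GFPhigh with at least 2 early TCR UMIs. The difference of Cd5 from Cd6 was not tested. Within cells with neither, GFPhigh over GFPlow was 0.63 [0.40, 0.87] for Cd5 and 0.71 [0.49, 0.93] for Cd6. Nr4a1, a gate gene, was at 2.86 [2.05, 3.87] in the same comparison, so these cells were not free of early TCR transcripts. Whether Cd5 and Cd6 differed apart from such transcripts was not tested. In effector over neither cells, Cd5 was 0.55 [0.13, 0.94], 0.61 [0.04, 1.098] and 0.26 [-0.63, 0.96] from GFPlow to GFPhigh. Cd6 was 0.55 [0.14, 0.92], 0.42 [-0.18, 0.93] and 0.37 [-0.41, 0.99]. Past counting error were both in GFPlow and Cd5 in GFPmed.

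The remaining receptors, Cd4, Cd28, Cd2 and Thy1, differed between gates in some bins. Cd4 in effector over neither cells was 0.36 [0.14, 0.58], 0.54 [0.16, 0.89] and 0.64 [0.12, 1.08] in GFPlow, GFPmed and GFPhigh, above 0 in each bin. In early TCR over neither cells, Cd4 was 0.34 [0.07, 0.60], -0.04 [-0.34, 0.24] and 0.30 [0.09, 0.50], and -0.17 in GFPhigh with at least 2 early TCR UMIs. Cd28 was 0.46 [0.20, 0.71], 0.32 [-0.16, 0.74] and 0.49 [-0.06, 0.96] in effector over neither cells, past counting error in GFPlow alone. Cd2 in early TCR over neither cells was -0.04 [-0.44, 0.32], 0.27 [-0.02, 0.53] and 0.34 [0.12, 0.56], past it in GFPhigh alone. In effector over neither cells, Cd2 was 0.46 [0.19, 0.72], -0.08 [-0.59, 0.36] and -0.10 [-0.85, 0.51], past it in GFPlow alone. Thy1 in effector over neither cells was 0.33 [0.20, 0.45], -0.01 [-0.27, 0.23] and -0.13 [-0.56, 0.25], also past it in GFPlow alone, where Foxp3 was at 0.48 [0.22, 0.72]. In early TCR over neither cells Thy1 was -0.06 [-0.24, 0.11], 0.25 [0.10, 0.40] and -0.05 [-0.20, 0.09], past it in GFPmed alone, and there -0.053 with at least 2 early TCR UMIs. Thy1 was lower in GFPhigh than in GFPlow within cells with neither (-0.67 [-0.76, -0.58]), early TCR cells (-0.66 [-0.87, -0.45]) and effector cells (-1.13 [-1.57, -0.74]).

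Thy1 followed Foxp3 from cell to cell. In cells with a thinned Foxp3 UMI, Thy1 stood at 2773, 1951 and 2000.96 UPM from GFPlow to GFPhigh; such cells were 16.9%, 12.9% and 15.9% of their bins. In the remaining cells it stood at 1383, 1034.4 and 784 UPM. The log2 ratio was 1.004 [0.90, 1.103], 0.92 [0.78, 1.04] and 1.35 [1.22, 1.48], placing Thy1 at rank 1, 10 and 2 of the genes with at least 500 UMIs. The median of these genes was 0.03, 0.02 and 0.02. None of the other 8 receptors reached the ratio of Thy1 in any bin. Cd83, under 500 UMIs and not ranked, was at 0.70 [-0.28, 1.53], 0.73 [-0.13, 1.46] and -0.16 [-0.75, 0.36]. Its intervals in GFPlow and GFPmed reached past the ratio of Thy1, as did that of Cd69 in GFPmed (0.39 [-0.23, 0.93]). Cd4 was 0.21 [0.01, 0.41], -0.05 [-0.35, 0.22] and 0.10 [-0.15, 0.33], Cd5 was 0.46 [0.07, 0.82], 0.27 [-0.13, 0.63] and 0.25 [-0.10, 0.58], and Icos was 0.64 [0.36, 0.91], 0.52 [0.08, 0.91] and 0.00 [-0.43, 0.39]. Between bins, Thy1 was lower in GFPhigh than in GFPlow in cells with a Foxp3 UMI (-0.47 [-0.61, -0.33]) and in cells without (-0.82 [-0.91, -0.73]). Against GFPmed it was level in the first (0.04) and lower in the second (-0.40). The part of the reporter transcript in the Thy1 counts was not tested.

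**Figure D4:**
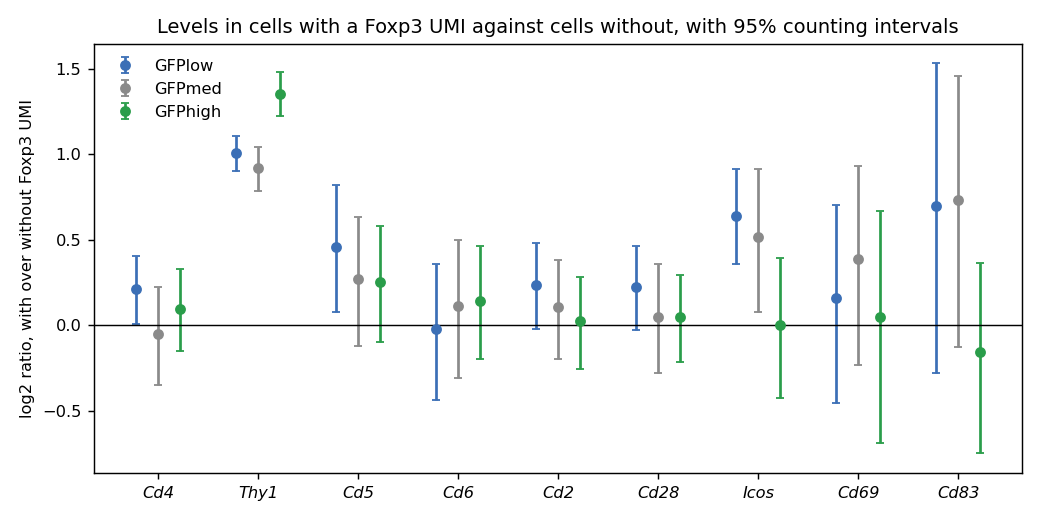
Log2 ratio of each receptor gene's level in cells with a Foxp3 UMI over cells without, in GFPlow, GFPmed and GFPhigh, with 95% exact conditional binomial intervals. Foxp3 UMIs were read after thinning to 500 UMIs, and receptor levels on all UMIs. Thy1 stands at 1.004, 0.92 and 1.35 in the 3 bins, above the ratio of every other receptor. The intervals of Cd83 in GFPlow and GFPmed and of Cd69 in GFPmed reach past it.

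Genes of the receptors' families and pathways were read beside them, from lists of those with at least 50 UMIs over the 3 libraries. Of all 8633 such genes, 4714 had the higher level in GFPhigh and 3919 in GFPlow, 845 and 560 of them past 1.5-fold, with a median of 0.04. In the CD2 and SLAM family and its binding partners, 4 of 9 measured genes were higher and 5 lower (median -0.04), and 1 was past 1.5-fold. That gene was Slamf1, a self-binding receptor, at 39.4, 33.8 and 70.03 UPM in GFPlow, GFPmed and GFPhigh (GFPhigh over GFPlow 0.83 [0.45, 1.21]). Its relatives Slamf6 (-0.29) and Ly9 (-0.26) were lower, and Cd2bp2, which binds the CD2 tail, was at 0.21 [-0.22, 0.64].

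Of 14 measured genes of the CD28 family and its signalling, the ratio of GFPhigh over GFPlow was above 0 for 6 and below it for 8; the median was -0.09, and 1 was past 1.5-fold in each direction. Both inhibitory relatives of CD28 named by the rule were higher: Pdcd1, which encodes PD-1, stood at 11.1, 23.1 and 51.5 UPM (2.20 [1.60, 2.88]), and Ctla4, which competes for the ligands of CD28, at 107.97, 91.9 and 142.7 UPM (0.40 [0.16, 0.64]). Of the kinases downstream, Akt1 was lower (-0.40 [-0.59, -0.21]) and Akt2 higher (0.45 [0.17, 0.74]), both within 1.5-fold. The gene lower past 1.5-fold was Grap2, with 52, 46 and 20 UMIs in GFPlow, GFPmed and GFPhigh (-1.26 [-2.10, -0.51]). Grap2 lies under the minimum for naming. Like Cd28, Ctla4 was lowest in GFPmed, and Pdcd1 was not.

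Of 16 genes whose products work with CD4, CD5, CD6 or Thy1, 10 had more UPM in GFPhigh and 6 had more in GFPlow; the median was 0.08, and 1 was past 1.5-fold in each direction. Pag1, an adaptor that brings the inhibitory kinase Csk to the membrane, stood at 96.5, 50.9 and 50.7 UPM (-0.93 [-1.26, -0.60]), high in GFPlow and level in the other bins. Zap70, the kinase of the TCR complex, was at 0.46 [0.22, 0.69], Ubash3a, which encodes a negative regulator of TCR signalling, at 0.54 [0.14, 0.95], and the adaptor gene Lat at -0.31 [-0.44, -0.19]. Alcam, which encodes the ligand of CD6, had 14, 13 and 44 UMIs (1.72 [0.86, 2.74]); it lies under the minimum for naming and was chosen after its values were seen.

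Of 7 genes of tissue egress and lymph node homing, the process that CD69 opposes, 3 leaned to GFPhigh and 4 to GFPlow, and 3 of the latter did so past 1.5-fold (median -0.25). Il7r, the interleukin-7 receptor gene, stood at 193.8, 100.3 and 73.997 UPM (-1.39 [-1.65, -1.13]). S1pr4 was at -0.81 [-1.08, -0.55], Klf2, which encodes the factor that drives S1pr1, at -0.63 [-0.75, -0.52], and S1pr1 itself at -0.25 [-0.35, -0.14]. Cd69 itself differed between no pair of bins beyond counting error.

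The genes most like each receptor were sought over the 12 groups of 3 bins by 4 gates (early TCR, effector, both, neither), by Pearson's r of log2(UPM + 10) among 2195 genes with at least 500 UMIs, leaving out the 9, the gate genes, and genes of ribosomal proteins, of the TCR itself and with Gm numbers for names. The groups share libraries, and those with both gene lists hold 14 to 24 cells, so r is a description only. Icos lay closest to Hif1a (0.96), Maf (0.94) and Ahnak (0.94), and Cd4 to Hif1a (0.92), Maf (0.90) and Tmbim6 (0.90), so that Icos and Cd4 share their nearest genes. Cd5 lay closest to the kinase gene Fyn (0.88), Nfatc1 (0.87), whose product is a factor of TCR signalling, and Agpat3 (0.86), and Thy1 to Tagln2 (0.91), Cd53 (0.90) and Ppp1r18 (0.90). Cd6 was nearest to Fgfr1op2 (0.88), Cd2 to Uqcrb (0.93), Cd28 to 2510039O18Rik (0.91) and Cd69 to Denr (0.86). Cd83 had under 500 UMIs and was not placed.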

How the data were processed

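The deposited table holds raw UMI counts per gene and cell, made by the authors from inDrops reads. Per the submitters' processing notes TopHat2, SAMtools and mm10 were used; versions, annotation, counter and UMI collapsing are not given in the sources used here. Each deposited sample is 1 cell, and bins follow the labels. Cells under 500 UMIs were left out, with no doublet caller run. UMIs were summed per bin and divided by the bin's total. Intervals are 95%: exact Poisson (levels), exact conditional binomial with 0.5 UMI added for the ratio itself (ratios) and Clopper-Pearson (shares). UMIs were not divided by gene length. Python 3.11.15, numpy 2.4.6, scipy 1.17.1, pandas 2.3.3 and, for TMM factors, edgeR 4.0.16 in R 4.3.3 were used; the ratio code was tested on simulated data. The receptors and gene lists were chosen with earlier results of these data known. Named genes were the 9, Foxp3 and Nr4a1, the 4 genes of each partner list whose GFPhigh and GFPlow levels lay farthest apart, given at least 100 UMIs, the 3 genes most like each receptor (some not printed; ribosomal protein, TCR and Gm-numbered genes were also left out, beyond the rule as first set), and the most abundant gene of each list of other cells. The promoter motifs were chosen after the sequence was seen. The thinning used a fixed random seed.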

Additional observations from a re-analysis of the deposited data

Results flagged for a closer look

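Cells under 500 UMIs, outside every comparison above, also held the 9 receptors: their summed level was 3736 UPM in GFPlow, 3133 UPM in GFPmed and 3240 UPM in GFPhigh. These lie above the levels that a count of 3 UMIs allows (29.4, 55.6 and 26.3 UPM). The summed levels in the kept cells were 3547, 2802 and 3059 UPM, in the same order of bins.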

How the results depend on the processing

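Over 10 alternatives (all cells, at least 1000 UMIs per cell, TMM factors, totals without ribosomal protein genes, cells with other markers, the deepest cells, shared barcodes or the richest cell left out, equal weight per cell, 1 UMI added), 2 of 270 ratios between bins left their counting interval, namely Thy1 in GFPmed over GFPlow without ribosomal protein genes (-0.41) and Cd83 in GFPhigh over GFPmed with equal weight per cell (1.09). With Foxp3 UMIs counted before thinning, an alternative added after seeing the data, the ratio of Thy1 was 1.15 in GFPmed and 1.49 in GFPhigh. Among ratios between gates under 4 alternatives, 17 left their interval and 3 reversed; with at least 2 early TCR UMIs, early TCR over neither reversed for Cd4 in GFPhigh (-0.17), Thy1 in GFPmed (-0.053) and Cd5 in GFPmed (-0.015). With these 2 UMIs, Cd5 in GFPlow was at 1.41. Cells with 1 early TCR UMI and under 2 effector UMIs then counted as neither, so both sides of these ratios changed. The causes were not tested. Genes past 1.5-fold, higher and lower, were 6.21% and 4.77% for GFPhigh over GFPlow, 2.45% and 4.02% for GFPmed over GFPlow and 5.55% and 1.97% for GFPhigh over GFPmed. At 2-fold they were 1.44% and 1.04%, 0.439% and 0.54%, and 0.987% and 0.357%. With a minimum of 50 UMIs they were 8.6% and 5.76%, 4.26% and 5.51%, and 7.58% and 3.42%. Thinned to 1000 UMIs, the log2 ratio of shares for Thy1 in GFPhigh over GFPlow was -0.46 in place of -0.61. That depth also left out 855 of the kept GFPlow cells and 711 of the kept GFPhigh cells. No paired analysis was possible because each bin is 1 library. Depth limits Cd83 and Cd69 most, at 62 to 238 UMIs per bin.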
